A study of Mus musculus with 28 samples.

Results

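The noncollagen matrix genes and crosslinking enzymes examined here are 43 genes of the 21935 in the deposited count table, chosen by name as proteoglycans, elastic fibre and microfibril proteins, latent TGF-beta binding proteins, adhesive and matricellular glycoproteins, laminins and nidogens, and lysyl oxidases with the procollagen C-endopeptidase enhancer. Collagens were not part of the list. The list is by gene name and role, but it was drawn up with earlier results of these data known, so its counts are a description and not independent evidence. All 43 symbols matched a row. Hepatic mRNA was sequenced from 28 male B6.V-Lepob/JRj mice, which lack leptin (Lep ob/ob) and become obese. They came to the study at 5 weeks of age and ate the AMLN diet, which is high in cholesterol, fructose, and fat, for 14 weeks before treatment and on through it, as a model of nonalcoholic steatohepatitis (NASH). Treatment was given by mouth once daily for 2 weeks, as vehicle in 10 mice, as obeticholic acid (OCA) in 9 mice, and as INT-787 in another 9, each drug at 30 mg/kg. Both drugs are agonists of the farnesoid X receptor (FXR), the nuclear receptor for bile acids. All groups shared the leptin deficiency and the diet, so no lean or chow-fed mouse gives a healthy level of any gene.

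The extracellular matrix of the liver is more than collagen. Proteoglycans and fibulins govern how fibrils and elastic fibres assemble, matricellular proteins such as tenascin C and thrombospondins are deposited at sites of injury, and lysyl oxidases link collagen and elastin chains covalently, which makes a scar stiff and resistant to degradation. In the fibrotic liver most of these proteins are made by activated stellate cells and portal fibroblasts, whereas plasma fibronectin is a hepatocyte product and laminins and nidogens also come from endothelial cells.

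Vehicle replicate 6 was the shallowest library, with 1009593 counts, and the other 27 mice had 9313260 to 22421506. Levels are given as CPM, counts per 1000000 of the TMM-scaled library total. A set of 3 CPM values gives the lowest, the median, and the highest mouse of a group. The hepatocyte genes *Alb* and *Apob* were high in every mouse, as liver has them. Vehicle replicate 5 stood apart. In 73 genes that lie opposite an expressed gene, its summed level was 3395 CPM, against 69.4 to 108.3 CPM in the other mice. Exons of 17 members share bases with an annotated gene on the other strand, among them *Ltbp2*, *Eln*, *Loxl2*, *Fn1*, *Tnc*, and *Thbs1*, and for 6 of the 17 (*Fbn1*, *Efemp2*, *Mfap4*, *Ltbp3*, *Nid2*, and *Loxl3*) counts of the opposite gene were at hand. The use of strand in counting is not stated. If vehicle replicate 5 was counted without strand, which was not tested, its values for these members can hold reads of the opposite gene. Of these 6, only *Loxl3* had its highest vehicle value in replicate 5 (5.47 CPM, against 0.920 to 4.87 CPM in the other vehicle mice). Htra2, the gene opposite *Loxl3*, was at 32.5 CPM in replicate 5 and at 5.31 to 12 CPM in the other mice. Without vehicle replicate 5, 21 members were called in INT-787 against vehicle, 1 in OCA against vehicle, and 18 in INT-787 against OCA.

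Levels of the members in vehicle livers spanned 3 orders of magnitude. Scaled for exon length, as CPM per kilobase of exon, mean vehicle levels were 164.3 for *Fn1*, 86.1 for *Bgn*, 71.0 for *Sparc*, 66.0 for *Ecm1*, and 53.3 for *Dcn*, and the lowest were 0.178 for *Vcan* and 0.161 for *Fbn2*. *Fn1* alone accounted for a median of 46.8% of the members' summed CPM in vehicle mice, 56.5% in OCA mice, and 61.5% in INT-787 mice. A sum over the list therefore follows fibronectin, and genes are given one at a time below. *Mfap5*, a microfibril glycoprotein, had at most 1 count in any mouse and was not tested, which left 42 members among the 12580 genes tested.

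Elastin and other elastic fibre genes, the matricellular genes *Tnc*, *Sparc*, and *Thbs2*, and the crosslinking enzymes *Lox* and *Loxl2* were lower after INT-787 than after vehicle, and fibronectin was higher. With INT-787 against vehicle, 20 of the 42 tested members fell and 1, *Fn1*, rose. Over all genes tested, 19.6% were called in this comparison, 9.48% as lower and 10.2% as higher, against 47.6% of members as lower and 2.38% as higher. The median log2 fold change was -0.56 over the members and -0.000996 over all genes, and 39 of 42 members had a value below 0. Calls rest on the quasi-likelihood test of edgeR at an adjusted p of at most 0.05 (Benjamini-Hochberg, 12580 genes), and every adjusted p given comes from it. With upper-quartile in place of TMM factors, 22 members fell and 1 rose, while over all genes the share of calls that were higher moved from 51.7% to 37.5%. In whole liver, fewer cells of a type and less RNA per cell cannot be told apart.

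With OCA against vehicle, *Lum* and *Fn1* rose and no member fell, 4.76% of the members against 6.60% of all genes (4.15% as higher and 2.45% as lower). At an unadjusted p under 0.05 there were 8 of 42 members, beside 18.5% of all genes. The median log2 fold change of the members was 0.04, beside 0.02 over all genes. With upper-quartile factors only *Fn1* was called, and the share of all calls that were higher moved from 62.9% to 52.3%. *Fn1* kept its call in all 28 fits that each left out 1 mouse and in 9 other alternatives. *Lum* lost it in 8 of those alternatives and in 18 of the fits, those without vehicle replicates 2 to 10, OCA replicates 1, 5, 6, 8, or 9, or INT-787 replicates 2, 6, 7, or 9.

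OCA and INT-787 were given at the same dose for the same time, so that this single pair of compounds could be compared directly. With INT-787 against OCA, 17 members were lower, 1 (*Ecm1*) was higher, and the median was -0.56. The share of genes called in this comparison was 5.38% over all genes, 3.19% as lower and 2.19% as higher, against 40.5% and 2.38% of members. Both comparisons with vehicle use the same 10 vehicle mice and both of INT-787 the same 9 INT-787 mice, so they are set side by side and not as independent results.

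**Figure D1:**
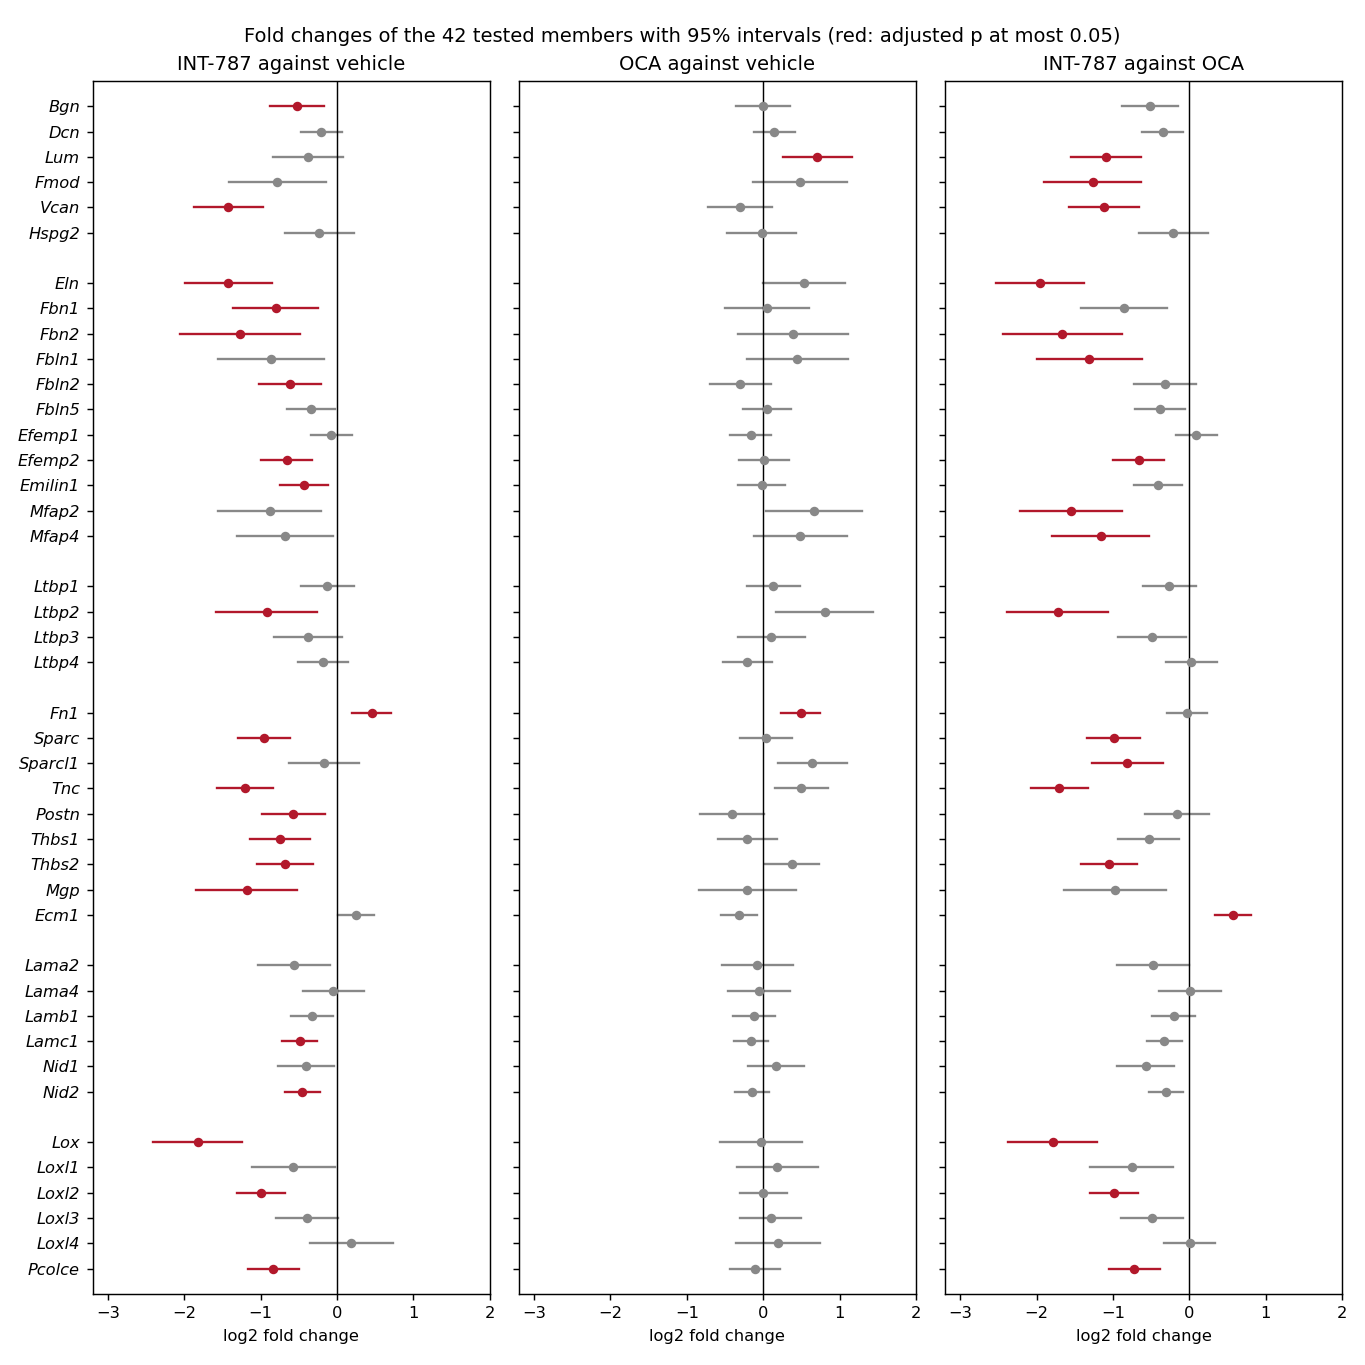
Log2 fold changes (points) with 95% intervals (lines) of the 42 tested members in the 3 comparisons, in the order of their roles, with the genes called at an adjusted p of at most 0.05 in red. With INT-787 against vehicle 39 of 42 points lie left of 0, and with OCA against vehicle 18 do.

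In 7 members a pair of groups did not overlap at all. INT-787 against vehicle separated every mouse for *Sparc*, *Tnc*, *Lox*, and *Pcolce* (2.66% of all genes did not overlap in this comparison), and INT-787 against OCA for *Eln*, *Ltbp2*, *Tnc*, *Lox*, and *Loxl2* (0.509% of all genes). No member separated OCA from vehicle (0.890% of all genes). The promoters of these members are shown because no mouse overlapped between a pair of groups. Of the 7, windows of 300 bases (250 before to 50 after the start site, RefSeq, GRCm38.p6) are given for *Ltbp2* (chr12:84876442-84876741), *Sparc* (chr11:55420031-55420330), *Tnc* (chr4:64046966-64047265, 1 of 2 windows of this gene), and *Pcolce* (chr5:137611355-137611654), all on the minus strand and written 5′ to 3′. Capitals mark matches to CAGACA, the core of a Smad binding element (written TGTCTG where it lies on the other strand), and to TATAAA.
Ltbp2: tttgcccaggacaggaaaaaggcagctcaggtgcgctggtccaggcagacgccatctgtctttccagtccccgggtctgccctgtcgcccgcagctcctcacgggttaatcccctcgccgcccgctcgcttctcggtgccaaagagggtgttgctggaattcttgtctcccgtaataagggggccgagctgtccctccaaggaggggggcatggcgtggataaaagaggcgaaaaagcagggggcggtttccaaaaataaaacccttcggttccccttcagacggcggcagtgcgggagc
Sparc: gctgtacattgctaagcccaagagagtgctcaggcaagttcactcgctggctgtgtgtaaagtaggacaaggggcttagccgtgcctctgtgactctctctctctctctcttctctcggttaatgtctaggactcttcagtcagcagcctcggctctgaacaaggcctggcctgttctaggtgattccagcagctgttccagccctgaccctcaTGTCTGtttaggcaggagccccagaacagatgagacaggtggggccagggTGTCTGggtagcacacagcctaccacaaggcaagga
Tnc: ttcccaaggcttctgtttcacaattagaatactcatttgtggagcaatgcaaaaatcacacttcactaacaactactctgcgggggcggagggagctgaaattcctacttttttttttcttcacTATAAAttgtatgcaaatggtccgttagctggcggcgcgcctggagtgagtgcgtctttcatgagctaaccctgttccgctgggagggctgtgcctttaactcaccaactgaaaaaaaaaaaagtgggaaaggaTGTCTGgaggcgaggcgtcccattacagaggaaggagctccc
Pcolce: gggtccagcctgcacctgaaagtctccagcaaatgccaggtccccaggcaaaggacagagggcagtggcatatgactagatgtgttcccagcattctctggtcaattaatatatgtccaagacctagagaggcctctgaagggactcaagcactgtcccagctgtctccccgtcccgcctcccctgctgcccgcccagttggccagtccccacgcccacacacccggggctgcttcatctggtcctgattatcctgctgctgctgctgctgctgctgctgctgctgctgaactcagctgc
The *Sparc* window held the Smad-like letters beginning 36 bases before the start site and again at base 15 after it. In *Tnc*, they began at base 9, and TATAAA began 126 bases before the start site. Neither *Ltbp2* nor *Pcolce* held any of the letters searched. On both strands, CAGACA was in 8 of the 26 members that have a window in the table (30.8%) and in 6906 of all 32817 windows (21%), TATAAA in 4 (15.4%, against 13.6%), and TGANTCA, the AP-1 motif, in 3 (11.5%, against 7.81%). Among the 12 members lower with INT-787 that have a window, 4 held CAGACA (*Emilin1*, *Sparc*, *Thbs2*, and *Tnc*), 3 held TATAAA (*Postn*, *Thbs2*, and *Tnc*), and 0 held TGANTCA. A match is a run of letters and was not tested as a binding site.

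By GENCODE M21 (GRCm38), the 7 genes include *Ltbp2* at chr12:84783212-84876532, *Sparc* at chr11:55394500-55423183, *Tnc* at chr4:63959785-64047015, *Pcolce* at chr5:137605103-137613784, *Eln* at chr5:134702593-134747323, and *Loxl2* at chr14:69609068-69695834. Exons of *Pcolce* share 112 bases with those of Fbxo24 on the same strand, and reads there could belong to either gene.

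**Figure D2:**
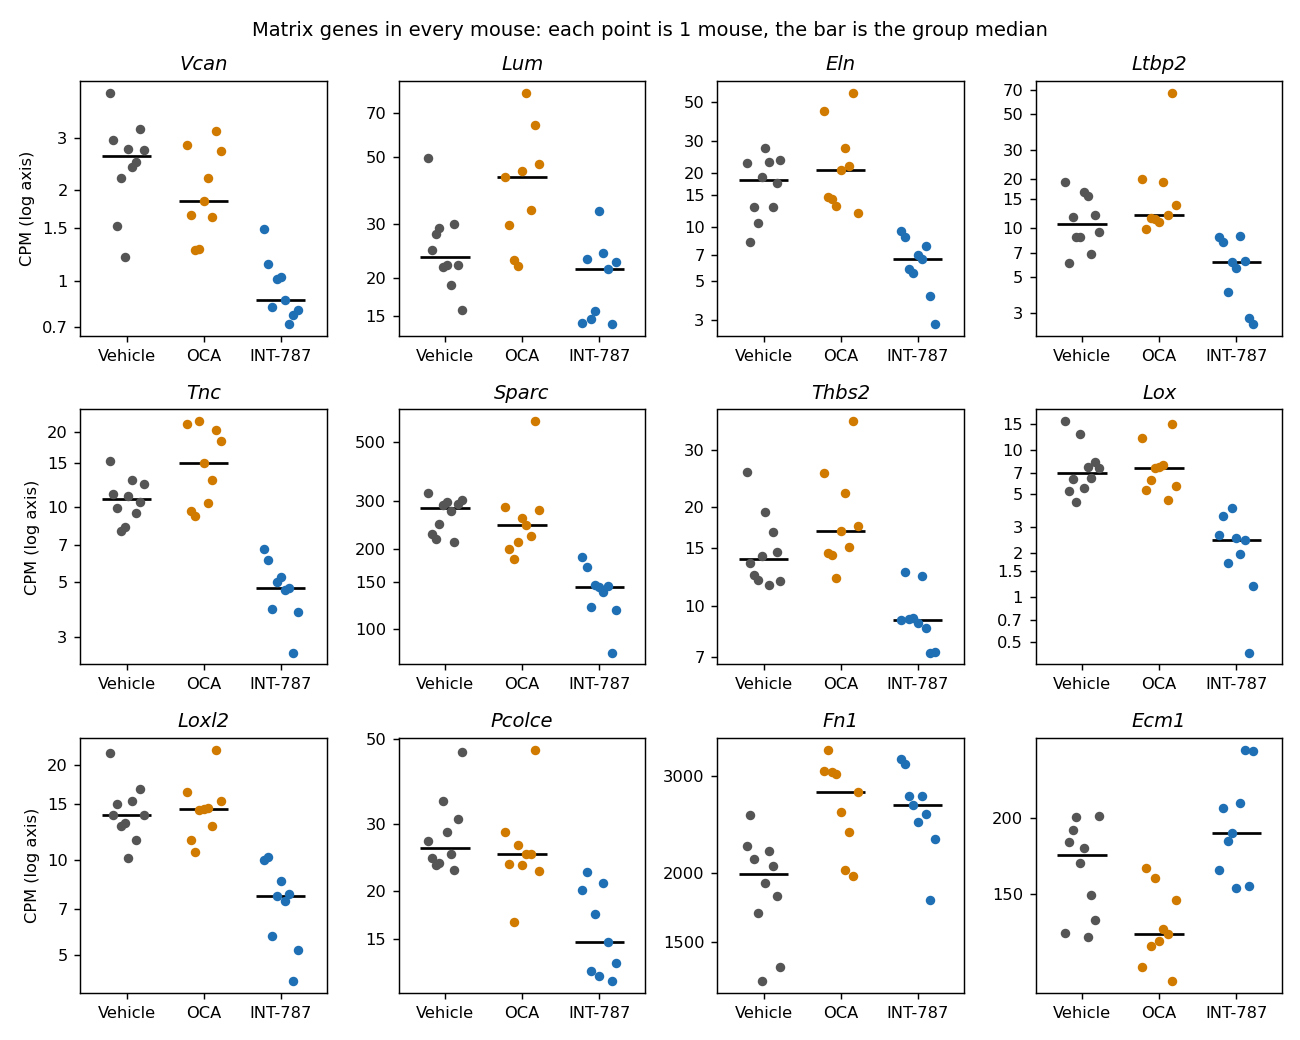
CPM on a log axis of 12 members in each of the 28 mice (points), with the group median as a bar. For Lox, Tnc, Sparc, and Pcolce all 9 INT-787 mice lie below all 10 vehicle mice, Fn1 is higher with both drugs, and Ecm1 is higher with INT-787 than with OCA.

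A crosslinking enzyme, *Lox*, had the deepest fall of the members against vehicle. Of 5 lysyl oxidases, 2 (*Lox* and *Loxl2*) fell with INT-787 against vehicle and were lower against OCA, as was *Pcolce* (9.48% and 3.19% of all genes were lower), which crosslinks nothing itself but aids procollagen processing, while none of the 6 passed the test with OCA against vehicle. *Lox*, lysyl oxidase, which oxidizes lysines of collagen and elastin so that they can crosslink, was at 4.41, 6.96, and 15.6 CPM with vehicle, 4.56, 7.54, and 15.02 CPM with OCA, and 0.419, 2.46, and 4.05 CPM with INT-787. All 9 INT-787 mice lay below every vehicle and every OCA mouse. The level with INT-787 was 0.282 of vehicle (log2 fold change -1.82, 95% interval -2.40 to -1.24, adjusted p = 1.77e-05) and 0.289 of OCA (log2 fold change -1.79, 95% interval -2.38 to -1.21, adjusted p = 0.000159). OCA and vehicle mice covered nearly the same range (log2 fold change -0.03, 95% interval -0.57 to 0.50, adjusted p = 0.98). *Loxl2*, an oxidase that acts on basement membrane collagen and on fibrillar collagen, was at 10.1, 13.9, and 21.8 CPM with vehicle, 10.6, 14.5, and 22.4 CPM with OCA, and 4.12, 7.66, and 10.2 CPM with INT-787. INT-787 mice were below all OCA mice, and 8 of 9 were below all vehicle mice. The change was about as large against vehicle (log2 fold change -0.99, 95% interval -1.30 to -0.67, adjusted p = 1.71e-05) as against OCA (log2 fold change -0.99, 95% interval -1.31 to -0.67, adjusted p = 0.000134), and for OCA against vehicle the interval ran from -0.30 to 0.31. *Pcolce*, which speeds the removal of the C-terminal propeptide from procollagens, was at 22.6, 25.9, and 46.1 CPM with vehicle, 16.6, 24.96, and 46.9 CPM with OCA, and 11.6, 14.7, and 22.4 CPM with INT-787. It was below every vehicle mouse in all 9 INT-787 mice and below every OCA mouse in 5 (log2 fold change -0.83, 95% interval -1.17 to -0.50, adjusted p = 0.000385 against vehicle and log2 fold change -0.72, 95% interval -1.06 to -0.38, adjusted p = 0.00774 against OCA).

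The remaining lysyl oxidases did not pass in any comparison. *Loxl1*, which is tied to elastic fibre upkeep and had the highest length-scaled level of the 6 genes averaged over the groups, was at 15.3, 24.7, and 32.2 CPM with vehicle, 15.4, 19.9, and 56.1 CPM with OCA, and 5.01, 16.3, and 26.8 CPM with INT-787. Values overlapped in every comparison, with 4 INT-787 mice below all vehicle mice (log2 fold change -0.57, 95% interval -1.11 to -0.03, adjusted p = 0.13 against vehicle, log2 fold change -0.75, 95% interval -1.30 to -0.21, adjusted p = 0.0945 against OCA, and log2 fold change 0.18, 95% interval -0.35 to 0.71, adjusted p = 0.795 for OCA against vehicle). Without INT-787 replicate 1, *Loxl1* was called against OCA (adjusted p = 0.0496). *Loxl3* and *Loxl4*, with vehicle medians of 4.40 and 1.34 CPM, had log2 fold changes of -0.39 and 0.19 with INT-787 against vehicle and of 0.10 and 0.19 with OCA against vehicle. Between INT-787 and OCA, they were -0.49 and 0.00.

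Of 11 elastic fibre genes tested, 6 (*Eln*, *Fbn1*, *Fbn2*, *Fbln2*, *Efemp2*, and *Emilin1*) fell with INT-787 against vehicle (54.5%, against 9.48% of all genes). None was called with OCA against vehicle, where 1 had an unadjusted p under 0.05, and 6 (*Eln*, *Fbn2*, *Fbln1*, *Efemp2*, *Mfap2*, and *Mfap4*) were lower relative to OCA (54.5%, against 3.19%). All 11 had a log2 fold change below 0 with INT-787 against vehicle, with a median of -0.68. *Eln*, elastin, the rubber-like core of the fibre, was at 8.27, 18.3, and 27.6 CPM with vehicle, 11.9, 20.8, and 56.3 CPM with OCA, and 2.85, 6.61, and 9.41 CPM with INT-787. No INT-787 mouse reached the lowest OCA mouse, and 7 of 9 were below the lowest vehicle mouse. It fell to 0.372 of vehicle (log2 fold change -1.43, 95% interval -1.996 to -0.85, adjusted p = 0.000376) and was at 0.258 of OCA (log2 fold change -1.96, 95% interval -2.53 to -1.38, adjusted p = 4.32e-05), whereas OCA against vehicle did not pass (log2 fold change 0.53, 95% interval -0.01 to 1.07, adjusted p = 0.277). Among the members this was the largest fold difference between the compounds.

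The fibrillins form the microfibrils around the elastin core. *Fbn1* was at 11.3, 31.6, and 55.3 CPM with vehicle, 15.1, 27.8, and 56.1 CPM with OCA, and 4.61, 15.9, and 29.6 CPM with INT-787. Only 2 INT-787 mice were below the lowest vehicle mouse, though all 9 were below the vehicle median (log2 fold change -0.80, 95% interval -1.36 to -0.24, adjusted p = 0.0365 against vehicle, log2 fold change -0.85, 95% interval -1.42 to -0.29, adjusted p = 0.0657 against OCA), and the call against vehicle was lost in 9 of the 28 fits without 1 mouse (vehicle replicate 1, 2, 7, or 9 or INT-787 replicate 3, 5, 6, 8, or 9). Against OCA *Fbn1* was called in 4 of those fits (without OCA replicate 3 or 7 or INT-787 replicate 1 or 2) and with the replicate number as a factor. *Fbn2*, a low-expressed fibrillin best known from developing tissue, was at 0.919, 1.76, and 4.19 CPM with vehicle, 0.865, 2.48, and 7.13 CPM with OCA, and 0.394, 0.745, and 2.08 CPM with INT-787. It fell against vehicle (log2 fold change -1.27, 95% interval -2.06 to -0.49, adjusted p = 0.0177) and was lower than with OCA (log2 fold change -1.66, 95% interval -2.44 to -0.88, adjusted p = 0.00791), with 6 of 9 INT-787 mice below the lowest mouse of each of the other groups. Counts behind it were small, from 1 to 115 per mouse.

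Fibulins and their partners lie between elastin and the microfibril. *Efemp2* (fibulin-4), which brings lysyl oxidase to tropoelastin, was at 12.7, 16.4, and 24.7 CPM with vehicle, 11.7, 14.2, and 30.9 CPM with OCA, and 6.89, 10.96, and 15.1 CPM with INT-787. In 7 of 9 INT-787 mice it was below all vehicle mice, and it fell both against vehicle (log2 fold change -0.66, 95% interval -0.99 to -0.33, adjusted p = 0.00394) and relative to OCA (log2 fold change -0.67, 95% interval -1.001 to -0.33, adjusted p = 0.0128). *Fbln2* (fibulin-2), found in vessel walls and basement membranes, was at 6.46, 12.6, and 17.9 CPM with vehicle, 7.32, 9.71, and 17 CPM with OCA, and 3.91, 8.81, and 13.1 CPM with INT-787. It fell against vehicle with overlapping ranges (log2 fold change -0.62, 95% interval -1.02 to -0.22, adjusted p = 0.0247), losing the call without vehicle replicate 7 or INT-787 replicate 9, and did not pass against OCA (log2 fold change -0.32, 95% interval -0.72 to 0.09, adjusted p = 0.422). *Emilin1*, a glycoprotein at the interface of elastin and microfibril, had the highest length-scaled vehicle level of the elastic fibre genes and was at 46.5, 51.8, and 67.6 CPM with vehicle, 36.99, 55.1, and 72.2 CPM with OCA, and 24.4, 41.9, and 62.9 CPM with INT-787. Of the INT-787 mice, 7 were below all vehicle mice and the other 2 above the vehicle median. Its fall against vehicle was small (log2 fold change -0.43, 95% interval -0.75 to -0.12, adjusted p = 0.0414) and was lost in 11 of 28 fits without 1 mouse (vehicle replicate 1, 2, 6, 7, or 9 or INT-787 replicate 3 or 5 to 9) and with no low-count filter. It was not called against OCA (log2 fold change -0.41, 95% interval -0.73 to -0.10, adjusted p = 0.116), except without INT-787 replicate 2.

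In a further group of elastic fibre genes the call was against OCA, and the call against vehicle depended on the fit. *Fbln1* (fibulin-1), which binds fibronectin and elastin, was at 3.68, 7.99, and 12.7 CPM with vehicle, 2.64, 6.91, and 40.3 CPM with OCA, and 2.48, 4.84, and 6.52 CPM with INT-787. *Mfap4*, a fibrinogen-domain glycoprotein of microfibrils, was at 2.95, 7.92, and 14.4 CPM with vehicle, 5.19, 8.04, and 38.8 CPM with OCA, and 2.505, 5.53, and 6.87 CPM with INT-787. The highest OCA values of both, 40.3 and 38.8 CPM, came from OCA replicate 8, with the next OCA mouse at 13.9 CPM in each. INT-787 against OCA passed for *Fbln1* (log2 fold change -1.31, 95% interval -2.003 to -0.62, adjusted p = 0.0182) and *Mfap4* (log2 fold change -1.17, 95% interval -1.79 to -0.53, adjusted p = 0.021), but without OCA replicate 8 the log2 differences were -0.73 and -0.67 and neither passed (adjusted p = 0.0967 and 0.11). *Mfap4* also lost the call without INT-787 replicate 9, and each of the pair lost it in 4 of 9 other alternatives, 3 of which kept all mice (limma-voom among them). Against vehicle they were at -0.87 and -0.68 (adjusted p = 0.069 and 0.122), but both were called in the fit of only the 2 groups compared, with 3 mice left out together, and without OCA replicate 8 (adjusted p = 0.00778 and 0.0242). With OCA against vehicle *Fbln1* and *Mfap4* were not called (log2 fold changes 0.45 and 0.49, adjusted p = 0.513 and 0.421). *Mfap2* (MAGP-1), which binds fibrillin and growth factors, was at 0.846, 1.87, and 3.22 CPM with vehicle, 1.25, 2.22, and 8.44 CPM with OCA, and 0.472, 1.07, and 1.88 CPM with INT-787. Its difference between the compounds (log2 fold change -1.55, 95% interval -2.21 to -0.89, adjusted p = 0.00345) was kept in every fit without 1 mouse, and against vehicle it missed the threshold (log2 fold change -0.88, 95% interval -1.56 to -0.21, adjusted p = 0.0582). Against vehicle it was called in 4 of 9 other alternatives (DESeq2 with default settings, upper-quartile factors, only the 2 groups compared, and 3 mice left out together) and without vehicle replicate 8, OCA replicate 8 or 9, or INT-787 replicate 2. *Fbln5* and *Efemp1* (fibulins 5 and 3) were not called in any comparison, with vehicle medians of 20.3 and 19.1 CPM and log2 fold changes of -0.34 and -0.07 with INT-787 against vehicle.

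Latent TGF-beta binding proteins tether the growth factor to microfibrils, except that *Ltbp2* does not bind the latent complex and rather accompanies fibrillin. Among the 4, *Ltbp2* alone was called, as lower with INT-787 against vehicle (25%, against 9.48% of all genes) and against OCA (25%, against 3.19%). It was at 6.06, 10.6, and 19.1 CPM with vehicle, 9.88, 11.9, and 67.6 CPM with OCA, and 2.56, 6.22, and 8.89 CPM with INT-787. No INT-787 mouse overlapped the OCA mice, and 4 lay below the lowest vehicle mouse. INT-787 was at 0.302 of OCA (log2 fold change -1.73, 95% interval -2.39 to -1.06, adjusted p = 0.00133), a call that held in all 28 fits without 1 mouse, with a log2 difference of -1.20 without OCA replicate 8. Against vehicle the fall (log2 fold change -0.92, 95% interval -1.58 to -0.26, adjusted p = 0.0431) was lost in 11 of those fits (without vehicle replicate 1, 3, 6, 7, or 9 or INT-787 replicate 3, 4, 5, 7, 8, or 9) and with the sample number set as a factor, and OCA against vehicle was not called (log2 fold change 0.81, 95% interval 0.17 to 1.44, adjusted p = 0.131). With 1 mouse left out, OCA against vehicle ran from 0.28 to 0.94 for *Ltbp2* (adjusted p from 0.0749 to 0.546). OCA replicate 8 was at 67.6 CPM and the next OCA mouse at 20.05 CPM. *Ltbp4*, the most abundant of the 4 per length, was at 54.7, 94.2, and 124 CPM with vehicle, 55.2, 79.9, and 107 CPM with OCA, and 42.9, 78.1, and 117 CPM with INT-787. The groups overlapped widely, with intervals of the log2 fold change from -0.51 to 0.14 for INT-787 against vehicle and from -0.31 to 0.35 for INT-787 against OCA. *Ltbp1* and *Ltbp3* had log2 fold changes of -0.13 and -0.38 with INT-787 against vehicle and were not called.

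Among 9 adhesive and matricellular glycoproteins, 6 (*Sparc*, *Tnc*, *Postn*, *Thbs1*, *Thbs2*, and *Mgp*) fell with INT-787 against vehicle (66.7%, against 9.48% of all genes) and 1 (*Fn1*) rose. Against OCA 4 (*Sparc*, *Sparcl1*, *Tnc*, and *Thbs2*) were lower (44.4%, against 3.19%) and 1 (*Ecm1*) was higher. *Tnc*, tenascin C, a hexameric glycoprotein of wounds and injured tissue, was at 7.97, 10.7, and 15.3 CPM with vehicle, 9.18, 14.96, and 22.1 CPM with OCA, and 2.58, 4.695, and 6.77 CPM with INT-787. INT-787 mice were below all mice of both other groups. Its level with INT-787 was 0.434 of vehicle (log2 fold change -1.20, 95% interval -1.57 to -0.83, adjusted p = 1.05e-05) and 0.307 of OCA (log2 fold change -1.70, 95% interval -2.08 to -1.33, adjusted p = 3.36e-07), the smallest adjusted p of any member. OCA mice had a higher median than vehicle mice, but the difference did not pass (log2 fold change 0.50, 95% interval 0.15 to 0.85, adjusted p = 0.0806). *Sparc*, a collagen-binding matricellular protein, was at 211, 284, and 323 CPM with vehicle, 182, 245, and 599 CPM with OCA, and 81.5, 143, and 186 CPM with INT-787. Every INT-787 mouse was below every vehicle mouse, and 8 of 9 were below every OCA mouse. The fall was to 0.516 of vehicle (log2 fold change -0.95, 95% interval -1.29 to -0.61, adjusted p = 9.05e-05), and the level was 0.503 of OCA (log2 fold change -0.99, 95% interval -1.34 to -0.64, adjusted p = 0.000446). Its relative *Sparcl1* (hevin) was at 17.4, 31.3, and 46.1 CPM with vehicle, 23.8, 40.4, and 125 CPM with OCA, and 19.5, 27.8, and 38.9 CPM with INT-787. With INT-787 it overlapped vehicle throughout (log2 fold change -0.17, 95% interval -0.63 to 0.29, adjusted p = 0.656). With OCA, 4 mice were above all vehicle mice, but the difference from vehicle was not called (log2 fold change 0.64, 95% interval 0.19 to 1.10, adjusted p = 0.083). The difference of INT-787 from OCA passed (log2 fold change -0.81, 95% interval -1.28 to -0.35, adjusted p = 0.0292), but not without OCA replicate 8, which had 124.7 CPM (adjusted p = 0.123). That call was also lost without OCA replicate 6 or INT-787 replicate 3, 7, 8, or 9, and in 5 of 9 other alternatives, limma-voom and the fit of only the 2 groups compared among them.

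Thrombospondins bind matrix and cell-surface receptors, and *Thbs1* can also free TGF-beta from its latent complex. *Thbs2* was at 11.6, 13.9, and 25.7 CPM with vehicle, 12.1, 16.9, and 36.7 CPM with OCA, and 7.19, 9.08, and 12.7 CPM with INT-787. In 7 of 9 INT-787 mice it was below all vehicle mice, and likewise below all OCA mice. It fell against vehicle (log2 fold change -0.68, 95% interval -1.04 to -0.31, adjusted p = 0.0071) and was at 0.482 of OCA (log2 fold change -1.05, 95% interval -1.42 to -0.69, adjusted p = 0.000429). *Thbs1* was at 5.14, 7.48, and 12.9 CPM with vehicle, 4.302, 6.46, and 10.6 CPM with OCA, and 3.43, 3.87, and 9.25 CPM with INT-787. Of the INT-787 mice, 6 lay below all vehicle mice and replicate 1 above the vehicle median. It fell against vehicle (log2 fold change -0.74, 95% interval -1.14 to -0.35, adjusted p = 0.00625) and missed the threshold against OCA (log2 fold change -0.54, 95% interval -0.93 to -0.14, adjusted p = 0.107). Without INT-787 replicate 1, the highest mouse of that group, it was called against OCA, with a log2 fold change of -0.71 (adjusted p = 0.0165). *Mgp*, matrix Gla protein, an inhibitor of calcification, was at 2.79, 5.88, and 12.9 CPM with vehicle, 1.86, 4.33, and 16.9 CPM with OCA, and 1.27, 3.04, and 3.98 CPM with INT-787. All INT-787 mice were below the vehicle median (log2 fold change -1.18, 95% interval -1.84 to -0.52, adjusted p = 0.00909), and the difference from OCA was not called (log2 fold change -0.97, 95% interval -1.64 to -0.31, adjusted p = 0.0749), except by DESeq2 with default settings and without OCA replicate 4 or 9. With 1 mouse left out, the difference from OCA ran from -1.09 to -0.52 (adjusted p from 0.0417 to 0.374). The highest OCA value was that of replicate 8, with the next OCA mouse at 5.365 CPM. *Postn*, periostin, which promotes collagen crosslinking, was at 20.2, 24.3, and 79.4 CPM with vehicle, 16.1, 26.6, and 29.98 CPM with OCA, and 13.8, 23.2, and 29.4 CPM with INT-787. The high vehicle value belonged to replicate 2, with the next vehicle mouse at 37.9 CPM. With 1 mouse left out, the log2 fold change of *Postn* with INT-787 against vehicle ran from -0.63 to -0.31 (adjusted p from 0.0292 to 0.173). Its call against vehicle (log2 fold change -0.57, 95% interval -0.99 to -0.15, adjusted p = 0.0468) was lost in 5 of 9 other alternatives and in 17 of 28 fits without 1 mouse, those without vehicle replicates 1 to 4, OCA replicates 1 to 5 or 7, or INT-787 replicates 1 to 4 or 6 to 8.

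Fibronectin moved the other way. *Fn1*, the adhesive protein that forms the first provisional matrix and that hepatocytes also secrete into plasma, was at 1270, 1991, and 2552 CPM with vehicle, 1975, 2807, and 3353 CPM with OCA, and 1786, 2653, and 3227 CPM with INT-787. In 6 OCA and 6 INT-787 mice it was above the highest vehicle mouse. It rose with INT-787 to 1.37 of vehicle (log2 fold change 0.45, 95% interval 0.20 to 0.71, adjusted p = 0.0105) and with OCA to 1.40 of vehicle (log2 fold change 0.49, 95% interval 0.23 to 0.75, adjusted p = 0.0141), and both calls held in all 28 fits without 1 mouse and in 9 other alternatives. Between the compounds the interval of the log2 difference ran from -0.30 to 0.23. Of 6 hepatocyte markers, *Alb* (log2 fold change 0.45 with INT-787 and 0.62 with OCA) and *Cps1* (0.99 and 0.89) rose in the same 2 comparisons. That is 33.3% in each, against 10.2% and 4.15% of all genes called as higher. No other marker of this list was called. The list's median was 0.20 with INT-787, where 1 of 6 was below 0, and 0.31 with OCA. The part of these markers in the *Fn1* result was not tested. *Ecm1*, a glycoprotein of hepatocytes and other cells that binds matrix and restrains TGF-beta activation, was at 127, 173, and 201 CPM with vehicle, 108, 129, and 165 CPM with OCA, and 153, 188, and 259 CPM with INT-787. All 9 INT-787 mice were above the OCA median and 6 were above the highest OCA mouse. It was higher with INT-787 than with OCA (log2 fold change 0.57, 95% interval 0.33 to 0.81, adjusted p = 0.00315), and neither drug differed from vehicle by the test (log2 fold change 0.25, 95% interval 0.02 to 0.48, adjusted p = 0.122 for INT-787, log2 fold change -0.32, 95% interval -0.55 to -0.08, adjusted p = 0.0986 for OCA).

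Of 6 small leucine-rich and large proteoglycans, 2 (*Bgn* and *Vcan*) fell with INT-787 against vehicle (33.3%, against 9.48% of all genes), 1 (*Lum*) rose with OCA (16.7%, against 4.15%), and 3 (*Lum*, *Fmod*, and *Vcan*) were lower after INT-787 than OCA (50%, against 3.19%). *Vcan*, versican, a large chondroitin sulfate proteoglycan of provisional matrix, was at 1.204, 2.605, and 4.24 CPM with vehicle, 1.26, 1.85, and 3.16 CPM with OCA, and 0.716, 0.866, and 1.49 CPM with INT-787. In 8 of 9 INT-787 mice it was below all vehicle mice, and in 8 of 9 below all OCA mice. It fell to 0.372 of vehicle (log2 fold change -1.43, 95% interval -1.88 to -0.97, adjusted p = 1.67e-05) and was at 0.46 of OCA (log2 fold change -1.12, 95% interval -1.57 to -0.66, adjusted p = 0.00236). Counts behind it were few, 3 to 80 per mouse with vehicle and 11 to 23 with INT-787. *Bgn*, biglycan, the most abundant of the 6 per length, was at 410.4, 518, and 727 CPM with vehicle, 369.5, 445, and 1157 CPM with OCA, and 210.1, 370.3, and 465 CPM with INT-787. All INT-787 mice were below the vehicle median and 6 below all vehicle mice (log2 fold change -0.53, 95% interval -0.88 to -0.17, adjusted p = 0.0303). The call was lost without vehicle replicate 9 or INT-787 replicate 5, 8, or 9, and in 1 of 9 other alternatives. Against OCA, whose replicate 8 reached 1157 CPM, the difference did not pass (log2 fold change -0.52, 95% interval -0.88 to -0.16, adjusted p = 0.0825).

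Lumican and fibromodulin, which limit the width of collagen fibrils, separated the 2 compounds more than either from vehicle. *Lum* was at 15.7, 23.4, and 49.9 CPM with vehicle, 21.8, 43, and 81.8 CPM with OCA, and 14.03, 21.4, and 33.3 CPM with INT-787. Of the OCA mice, 7 were above the vehicle median and 2 above all vehicle mice, and 5 INT-787 mice were below all OCA mice. It rose with OCA (log2 fold change 0.71, 95% interval 0.26 to 1.16, adjusted p = 0.0465), was lower with INT-787 than with OCA (log2 fold change -1.09, 95% interval -1.55 to -0.63, adjusted p = 0.00322), and did not pass for INT-787 against vehicle (log2 fold change -0.38, 95% interval -0.83 to 0.07, adjusted p = 0.245). *Fmod* was at 4.996, 15.4, and 25.1 CPM with vehicle, 12.2, 16.9, and 50.2 CPM with OCA, and 2.44, 8.09, and 15.4 CPM with INT-787. INT-787 was at 0.416 of OCA (log2 fold change -1.27, 95% interval -1.90 to -0.63, adjusted p = 0.013) with 7 of 9 mice below all OCA mice, while against vehicle it missed the threshold (log2 fold change -0.78, 95% interval -1.42 to -0.15, adjusted p = 0.0733). Against vehicle *Fmod* was called in 4 of the 28 fits without 1 mouse (vehicle replicate 2 or 4, OCA replicate 8, or INT-787 replicate 6). With vehicle replicates 5 and 6 and OCA replicate 8 left out together, its difference from OCA had an adjusted p of 0.0532. *Dcn*, decorin, and *Hspg2*, perlecan of basement membranes, had vehicle medians of 319 and 77.0 CPM and were not called, with log2 fold changes of -0.21 and -0.23 with INT-787 and of 0.14 and -0.02 with OCA.

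Of 6 laminin and nidogen genes of the basement membrane, 2 (33.3%, against 9.48% of all genes), *Lamc1* and *Nid2*, fell with INT-787 against vehicle, and 5 had an unadjusted p under 0.05, as did 32.3% of all genes. None was called in the other 2 comparisons, in which 0 and 4 had an unadjusted p under 0.05 (OCA compared with vehicle, then INT-787 with OCA, in which 18.5% and 18.9% of all genes did). *Lamc1*, the gamma chain shared by most laminins, was at 49.2, 61.3, and 73.5 CPM with vehicle, 43.6, 57, and 63.5 CPM with OCA, and 24.5, 42.7, and 56.6 CPM with INT-787. All INT-787 mice were below the vehicle median and 7 below all vehicle mice (log2 fold change -0.49, 95% interval -0.72 to -0.26, adjusted p = 0.00192), and the difference from OCA missed the threshold (log2 fold change -0.33, 95% interval -0.56 to -0.10, adjusted p = 0.0844). Without INT-787 replicate 1 or 2, *Lamc1* was called against OCA. *Nid2*, which links laminin to other basement membrane proteins, was at 8.29, 11.1, and 13.9 CPM with vehicle, 8.12, 10.02, and 14.3 CPM with OCA, and 6.63, 8.03, and 10.2 CPM with INT-787. It fell by about as much (log2 fold change -0.45, 95% interval -0.68 to -0.23, adjusted p = 0.00339), with 5 of 9 INT-787 mice below all vehicle mice, and was not called against OCA (log2 fold change -0.31, 95% interval -0.53 to -0.08, adjusted p = 0.106). *Nid1*, the most abundant of the 6 per length, was at 104, 150.1, and 200.4 CPM with vehicle, 130.3, 186, and 211 CPM with OCA, and 40.2, 102, and 181 CPM with INT-787. In 5 INT-787 mice it was below all vehicle mice, but the spread was wide and it was not called (log2 fold change -0.41, 95% interval -0.77 to -0.04, adjusted p = 0.113 against vehicle, log2 fold change -0.57, 95% interval -0.95 to -0.20, adjusted p = 0.0617 against OCA, log2 fold change 0.17, 95% interval -0.20 to 0.53, adjusted p = 0.698 for OCA against vehicle). Against OCA it was called in 4 of 9 other alternatives (DESeq2, limma-voom, and upper-quartile factors among them) and without OCA replicate 3 or INT-787 replicate 1 or 2, and against vehicle in 1 of the 9 and without INT-787 replicate 1. *Lama2*, *Lama4*, and *Lamb1* had vehicle medians of 8.43, 11.1, and 27.8 CPM and log2 fold changes of -0.56, -0.05, and -0.33 with INT-787 against vehicle.

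Mice of one group differed in how far the whole list was shifted. The median over the 42 members of each mouse's log2 difference from the vehicle mean ranged from -0.19 to 0.34 with vehicle, from -0.37 to 0.89 with OCA, and from -1.23 to -0.13 with INT-787, and was below 0 in 6, 6, and 9 mice. OCA replicate 8 had the highest OCA value of 31 of the 42 members, and INT-787 replicate 8 the lowest INT-787 value of 25. Without OCA replicate 8, 25 members were called in INT-787 against vehicle (the 21, with *Fmod*, *Fbln1*, *Mfap2*, and *Mfap4*) and 15 in INT-787 against OCA. Without INT-787 replicate 8 or without replicate 9, INT-787 against vehicle gave 16. Of the 21 calls in that comparison, 15 (*Vcan*, *Eln*, *Fbn2*, *Efemp2*, *Fn1*, *Sparc*, *Tnc*, *Thbs1*, *Thbs2*, *Mgp*, *Lamc1*, *Nid2*, *Lox*, *Loxl2*, and *Pcolce*) held in all 28 fits without 1 mouse and in 9 other alternatives, and of the 18 against OCA, 14 did.

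**Figure D3:**
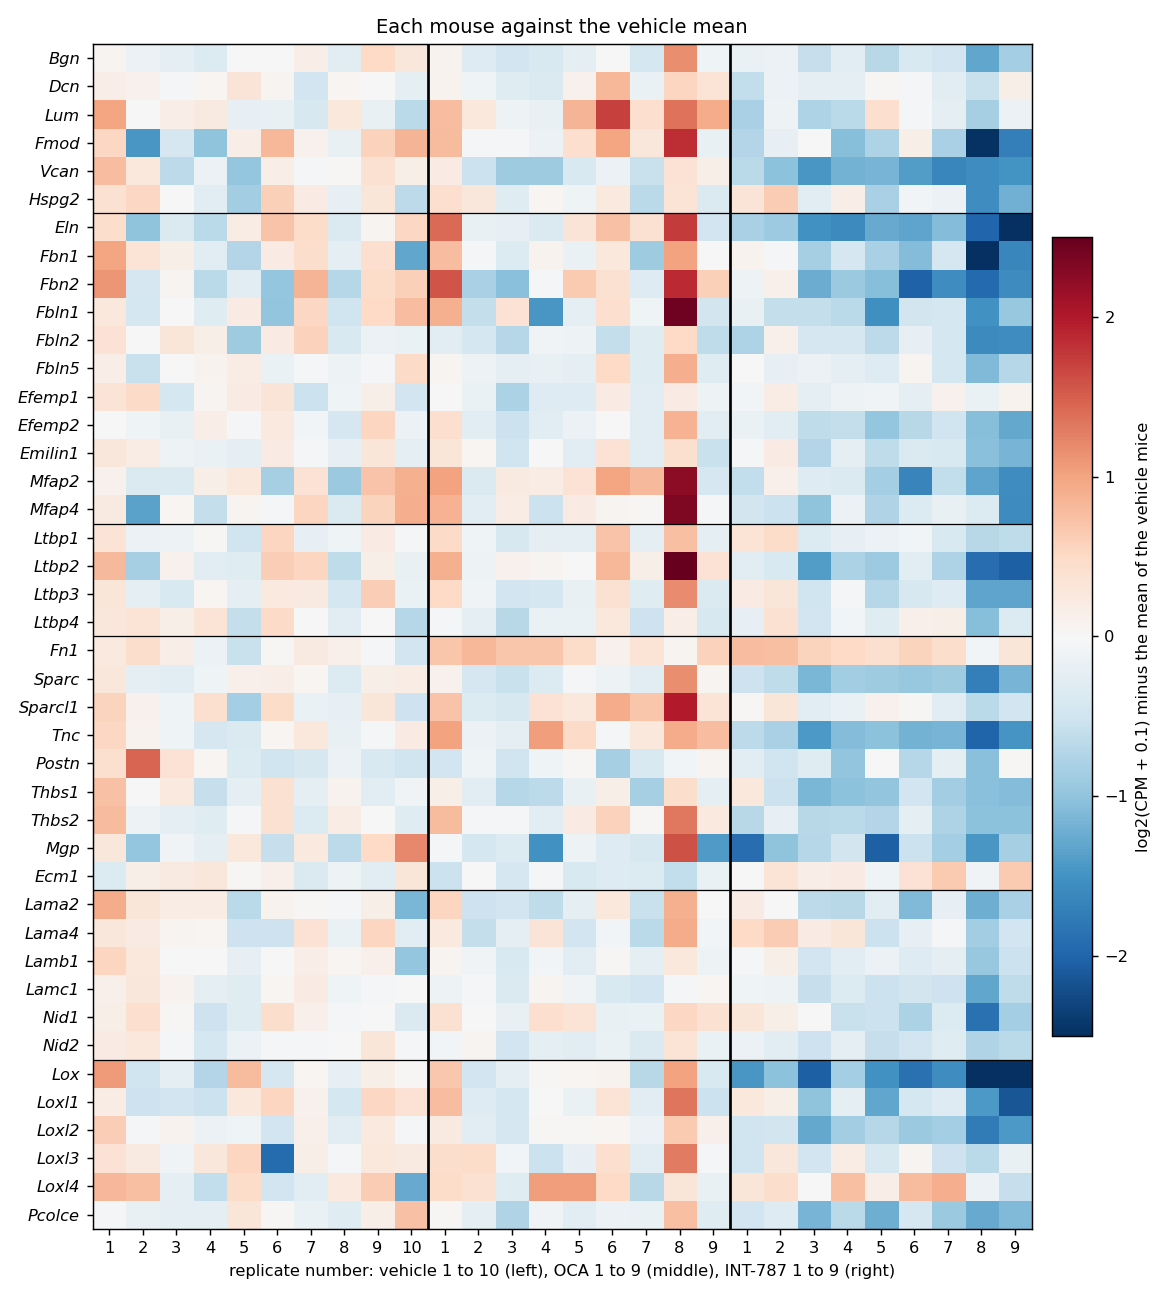
Log2(CPM + 0.1) minus the vehicle mean for the 42 tested members (rows, grouped by role) in the 28 mice (columns), red for higher and blue for lower. OCA replicate 8 is red in most rows and INT-787 replicates 8 and 9 are the darkest blue columns.

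Markers of the cells that make matrix moved with part of these results. Of 8 stellate cell markers, *Lrat*, *Des*, and *Rgs5* fell with INT-787 against vehicle (37.5%, against 9.48% of all genes). None was called in the other 2 comparisons. The median log2 fold change against vehicle was -0.36 with INT-787 (7 of 8 below 0) and -0.23 with OCA (6 of 8 below 0). Summed levels were 223.2 to 438.3 CPM with vehicle, 261.6 to 402.8 CPM with OCA, and 178.9 to 380.7 CPM with INT-787. Of 5 contractile genes 4 were tested, and *Acta2* and *Tagln* fell with INT-787 against vehicle (50%, against 9.48% of all genes) and against OCA (50%, against 3.19%). Their log2 fold changes were -1.15 and -1.11 against vehicle and -1.05 and -1.03 against OCA (adjusted p = 0.0005, 1.51e-06, 0.00596, and 4.82e-05). The summed level of all 5 was 31.7 to 116.2, 31.2 to 59.8, and 15.8 to 40.7 CPM with vehicle, OCA, and INT-787 in turn. Of 6 endothelial markers *Pecam1* and *Cdh5* fell with INT-787 against vehicle (33.3%, against 9.48% of all genes). Of 6 macrophage markers *Cd68* fell (16.7%) and was also lower against OCA (16.7%, against 3.19% of all genes). Between the drugs the macrophage markers split, 3 below 0 and 3 above (median log2 fold change -0.15). Against vehicle, 5 of the 6 were below 0 with INT-787 and all 6 with OCA. The median log2 fold change of the endothelial markers against vehicle was -0.30 with OCA and -0.33 with INT-787, and between the drugs it was -0.01, while 4 of 6 had an unadjusted p under 0.05 in each comparison with vehicle (18.5% of all genes with OCA and 32.3% with INT-787). No portal fibroblast (3 tested), mesothelial (2), cholangiocyte (4), or lymphocyte (3) marker was called in any comparison. *Gli1* of portal fibroblasts, *Upk1b* of mesothelium, and *Ms4a1* and *Cd79a* of B cells were at or near 0, under 1 CPM in every OCA and INT-787 mouse. OCA replicate 8 stood out for cholangiocyte markers (177.7 CPM summed, other OCA mice 45.7 to 110.2) and portal fibroblast markers (47.8 CPM, others 12.9 to 26.9), but not for stellate markers (353.7 CPM, others 261.6 to 402.8). That mouse was also the highest OCA mouse for mesothelial (4.78 CPM, others 1.085 to 3.98) and lymphocyte markers (6.02 CPM, others 2.125 to 5.15), both at low levels. INT-787 replicate 8 was the lowest INT-787 mouse for stellate (178.9 CPM, others 273.4 to 380.7) and endothelial markers (108.2 CPM, others 157.9 to 237.5) and also for hepatocyte markers. The part of these shifts in the member results was not tested.

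**Figure D4:**
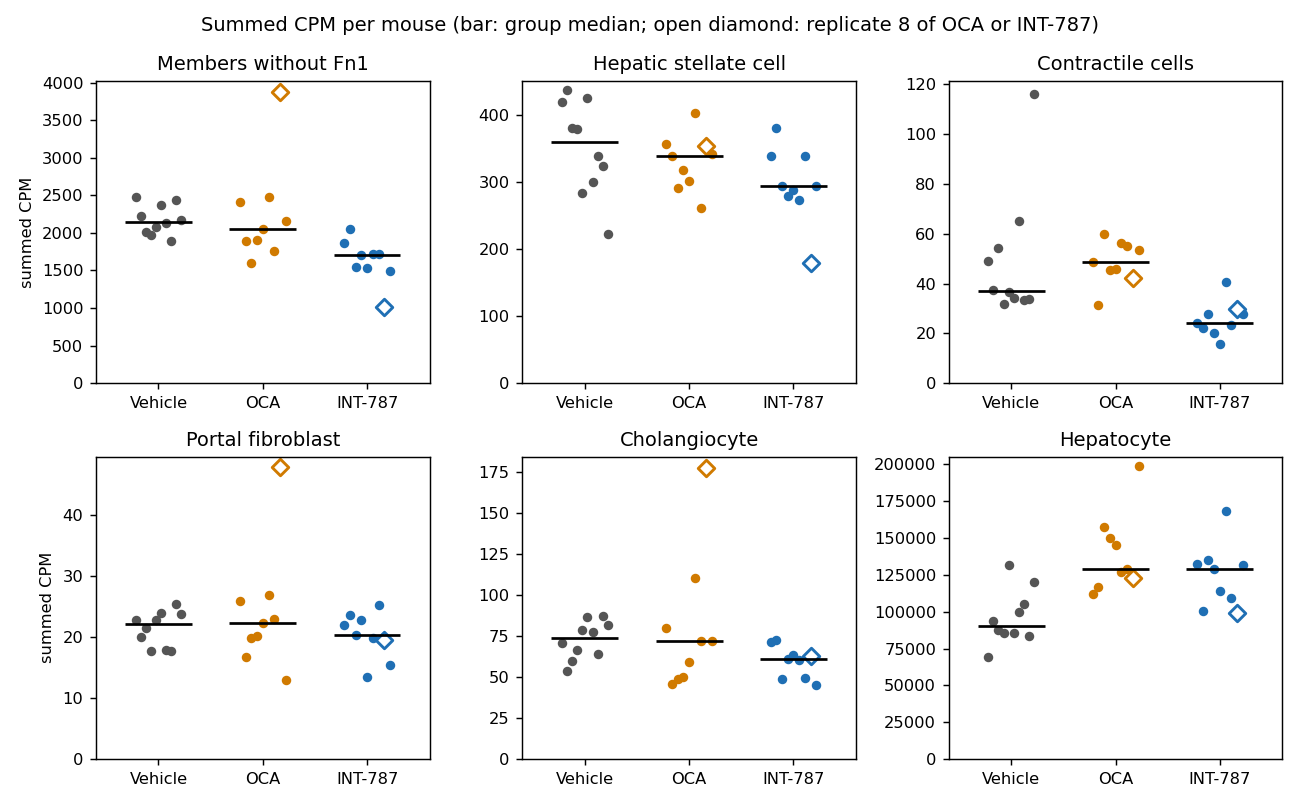
Summed CPM per mouse of the 42 members other than Fn1 and of 5 marker lists, with group medians as bars and replicate 8 of OCA and INT-787 as open diamonds. OCA replicate 8 is the highest OCA mouse for the members (3878 CPM), portal fibroblast, and cholangiocyte markers, and INT-787 replicate 8 is the lowest INT-787 mouse for the members (1013 CPM) and stellate markers.

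Of 102 other noncollagen matrix genes, 82 were tested. With INT-787 against vehicle 24 fell (29.3%, against 9.48% of all genes) and 6 rose (7.32%, against 10.2%). With OCA against vehicle 6 were called, 3 in each direction, and their 7.32% was near the 6.60% of all genes. With INT-787 against OCA 11 were lower (13.4%, against 3.19%) and none higher. The median log2 fold change with INT-787 against vehicle was -0.30, beside -0.56 for the members. Enzymes that modify procollagen gave the most calls, 10 lower and 1 higher of 18. *Plod2*, the lysyl hydroxylase whose product enters pyridinoline crosslinks, was at -1.16 (adjusted p = 0.000231) and the procollagen N-propeptidase *Adamts2* at -0.61 (adjusted p = 0.0183), and both were lower against OCA (-0.72 and -0.97). The related *Adamts14* fell with both drugs (-0.91 with INT-787 and -0.93 with OCA). Of 20 further elastic fibre and adhesive glycoproteins 6 fell, with *Ccn5*, a matricellular growth inhibitor, at -1.45, osteopontin (*Spp1*) at -0.74, and *Fstl1* at -0.85, and these 3 were also lower against OCA (-1.59, -1.12, and -1.02). Of 23 matrix receptors 5 fell and 2 rose, among them the laminin receptor *Itga6* (-0.82), the hyaluronan receptor *Cd44* (-0.75), and *Itga9* (-0.44). Of 10 further proteoglycans 2 fell and 3 rose, with the link protein *Hapln1* at 1.06, osteomodulin (*Omd*) at 0.82, and serglycin (*Srgn*) at -0.66. Among 11 further laminins and basement membrane glycoproteins only *Npnt*, an integrin ligand, was called (-1.37, adjusted p = 0.00842).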

How the data were processed

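Hepatic mRNA was measured in 28 mice, grouped by their labels into vehicle (n = 10), OCA (n = 9), and INT-787 (n = 9). The authors prepared stranded poly-A libraries, used STAR 2.5.2a to align reads to GRCm38, with the gene models of Ensembl 89, and deposited raw counts of reads per gene without normalization. The counting program, its use of strand, and any gene filter are not given in the sources used here. No column belonged to a sample outside the series (0). Of 21935 genes, 21858 matched a symbol in GENCODE M21, with older symbols of list genes matched through RefSeq synonyms, and Pcolce, Ecm1, and Loxl2 share exon bases with another gene on the same strand.

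Counts were filtered with filterByExpr (12580 genes kept), scaled by TMM, and tested in 1 model of the 3 groups with edgeR 4.0.16 (glmQLFit and glmQLFTest) in R 4.3.3, adjusting p over every gene tested (Benjamini-Hochberg, threshold 0.05). The study's tool, DESeq2, was run as an alternative (version 1.42.0), as were limma-voom (limma 3.58.1), DESeq2 size factors, upper-quartile factors, no low-count filter, fits of only the 2 groups compared, a factor for the replicate number or for the run of adjacent sample numbers in the labels, and fits without each mouse in turn or without vehicle replicates 5 and 6 and OCA replicate 8 together. Figures and tables used Python 3.11.15, pandas 2.3.3, and matplotlib 3.10.9.

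Total counts ran from 1009593 to 22421506 per mouse. A level of 5 CPM rests on 5.44 counts in vehicle replicate 6 and on 45.8 to 111.9 counts in the other mice. Within groups no libraries appeared to be the same (smallest chi-square per gene 2.97). The labels do not say whether mice shared a cage or litter.

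Full values are given for every member called in any comparison and for the member with the highest length-scaled level of each role list. Other members are given by medians and fold changes, and from each further list up to 3 called genes with the largest change are named. The members, lists, and motifs were chosen with earlier results of these data known. Promoter windows came from RefSeq (GRCm38.p6), for 26 of 43 members.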

Additional observations from a re-analysis of the deposited data

Results flagged for a closer look

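In 93 sets of values (the 31 members given in full, in 3 groups), 8 had a mouse farther from the others of its group than Dixon's ratio allows, and chance alone flags about 1 in 20 groups. Of the 8, 5 were high values in OCA replicate 8. Bgn reached 1157 CPM there (other OCA mice 369.5 to 549), Mfap4 38.8 CPM (5.19 to 13.9), Ltbp2 67.6 CPM (9.88 to 20.1), Sparc 599 CPM (182.1 to 284.9), and Mgp 16.9 CPM (1.86 to 5.37). The same mouse had the highest OCA sum of cholangiocyte, portal fibroblast, mesothelial, and lymphocyte markers, and the part of this in the member values was not tested. The other 3 were Postn in vehicle replicate 2 (79.4 CPM, others 20.2 to 37.9), Thbs1 in INT-787 replicate 1 (9.25 CPM, others 3.43 to 5.51), and Lamc1 in INT-787 replicate 8, which was low (24.5 CPM, others 39.1 to 56.6).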

How the results depend on the processing

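Over all alternatives the 3 medians of the members' log2 fold changes moved by less than the spread of the vehicle mice's own medians (SD 0.17). They ranged from -0.62 to -0.49 for INT-787 against vehicle and from -0.70 to -0.47 for INT-787 against OCA, while for OCA against vehicle the median changed sign within -0.12 to 0.11. Counts of called members stayed within 1.5 times in 2 comparisons. With 1 mouse left out they ran from 16 to 25 (INT-787 against vehicle) and from 15 to 23 (INT-787 against OCA), and over the other alternatives from 19 to 25 and from 14 to 20. For OCA against vehicle the count of 2 became 1, Fn1, under DESeq2 size factors, upper-quartile factors, no filter, limma-voom, only the 2 groups compared, the sample number set as a factor, and 3 mice left out together, and ran from 1 to 4 with 1 mouse left out (4 without OCA replicate 2 or 3, with Sparcl1 and Tnc). The cause was not tested.

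The labels do not say what mice with the same replicate number share, and the numbers were not taken as pairs. Deviations of same-numbered mice from their group means correlated from -0.24 to 0.24, from -0.20 to 0.43, and from -0.20 to 0.37 for INT-787 and vehicle, for OCA and vehicle, and for the 2 drugs, above 0.1 in 2, 3, and 6 of 9 pairs, and in 13 of 54 cases a mouse correlated best with its own number. With the replicate block, 21 members were called in INT-787 against vehicle (without Bgn and Postn, with Lama2 and Lamb1), 1 in OCA against vehicle (without Lum), and 17 in INT-787 against OCA (without Fbln1, Mfap4, and Sparcl1, with Fbn1 and Thbs1). Mice with adjacent sample numbers in the labels form sets that differ from the replicate numbers. Pairs of mice of the same set had median correlations of 0.0825 (INT-787 against vehicle, 9 pairs, -0.15 to 0.24), 0.0974 (OCA against vehicle, 8 pairs, -0.20 to 0.43), and 0.198 (INT-787 against OCA, 8 pairs, -0.17 to 0.43), beside -0.0087, -0.00045, and -0.0208 over pairs of different sets, and 13 of these 25 pairs were above 0.1. With the set as a factor, 20, 1, and 16 members were called. Ltbp2 and Postn against vehicle, Lum in OCA against vehicle, and Fbln1, Mfap4, and Sparcl1 against OCA lost their calls, and Nid1 gained a call against vehicle and against OCA.

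Over all genes, upper-quartile factors moved the share of calls that were higher from 51.7% to 37.5% in INT-787 against vehicle and from 62.9% to 52.3% in OCA against vehicle. With those factors 22 members were lower and 1 higher in the former and 0 lower and 1 higher in the latter. Over the 42 tested members in the 3 comparisons, 81 calls were lost and 35 gained among 3528 values with 1 mouse left out. Under the other alternatives 30 were lost and 20 gained among 1134 values, with 0 reversed in either. Only the 21, 2, and 18 calls of the main fit could be lost, so the losses are not to be read as shares of all values. Low-expressed members such as Vcan, Fbn2, and Mfap2 rest on few counts, and vehicle replicate 6 had 1 to 3 of them.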
